A study of Mus musculus with 8 samples.

Results

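Ccn1 and 9 other genes known as targets of the transcriptional co-activators YAP and TAZ were followed in RNA of the mouse lens capsule, the basement membrane around the lens with its attached lens epithelium. The members are Ccn1, Ccn2, Ankrd1, Amotl1, Amotl2, Lats2, Ajuba, Crim1, Axl and Ptpn14, 10 of the 54532 gene identifiers in the count table. They were matched by symbol, and the set was selected on the measured ASC against sham values, because a large rise of Ccn1 in this contrast was already known. The ASC against sham values of the members are therefore given as a description, without a test, and the question put to them is whether Ccn1 moved alone or with the other targets.

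The ASC group held 4 libraries from wild-type C57BL/6 mice aged 6 to 8 weeks whose anterior capsule had been pierced at its centre through the cornea with a 26-gauge needle, an injury model that the submitters link to fibrotic cataract. The sham group held 4 libraries from mice of the same strain, genotype and age whose cornea alone was cut and whose lens capsule stayed closed. All capsules were taken 7 days after surgery. The labels call the replicates biological, and the number of mice or capsules behind a library was not stated in the labels. Library totals were 14638645 to 19067642 counts in ASC and 14420494 to 21141582 counts in sham, and 15857 genes had enough counts to be tested. Because these are bulk samples, fewer cells of a type and less RNA per cell cannot be told apart.

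Marker genes of the lens and of tissues that a capsule preparation can carry were summed in CPM (reads relative to library size), and the sums were compared by a two-sided exact permutation test adjusted over 11 lists. In this test the smallest p before adjustment is 0.0286, which the red cell and neutrophil sums reached, and adjustment took it to 0.157. At this group size an adjusted p above 0.05 does not show that the groups were alike. Over all genes, 2335 of the 15857 tested had an unadjusted p under 0.05 and 162 passed edgeR's test. DESeq2 called 572 genes in all and limma-voom 160. All 11 lens epithelial markers were detected, and 0 passed edgeR's test, DESeq2 or limma-voom (0 had an unadjusted p under 0.05). Their sum was 152674 to 236007 CPM in ASC and 148046 to 215324 CPM in sham (adjusted p = 0.629). The list includes the crystallin genes Cryaa and Cryab and the sum was not split by gene, so it does not measure epithelial content. Of the 13 lens fibre markers 0 passed edgeR's test, but 4 had an unadjusted p under 0.05, DESeq2 called 3 (Bfsp1, Lgsn and Dnase2b) and limma-voom called 1 (Lgsn). Lens fibre markers summed to 100659 to 165919 CPM in ASC and 81626 to 146084 CPM in sham (adjusted p = 0.454), so the groups overlapped. Lgsn, 1 gene of that list named after its values were seen, averaged 3151 ± 1960 CPM in ASC and 407 ± 193 CPM in sham (SD, n = 4 each), with the groups apart. Red cell markers summed to 73.9 to 370 CPM in ASC and 40.1 to 62.8 CPM in sham (adjusted p = 0.157), with the groups apart. Of the 5 tested, 0 passed edgeR's test, 5 had an unadjusted p under 0.05 and DESeq2 called 4. Pigment cell markers summed to 203 to 714 CPM in ASC and 91.7 to 264 CPM in sham (adjusted p = 0.21). Of the 8 tested, 0 passed edgeR's test, 6 had an unadjusted p under 0.05 and DESeq2 called 2. Neutrophil markers summed to 2.88 to 4.72 CPM in ASC and 0.595 to 1.83 CPM in sham (adjusted p = 0.157), with the groups apart and with Ly6g and Cxcr2 at 0 in all 8 libraries. Keratocyte and fibroblast markers summed to 1171 to 1941 CPM in ASC and 904 to 1408 CPM in sham (adjusted p = 0.262). Of the 7 tested, 0 passed edgeR's test, 3 had an unadjusted p under 0.05 and DESeq2 called 1 (Ptgds). Smooth and ciliary muscle markers summed to 19.3 to 83.6 CPM in ASC and 17.3 to 26.4 CPM in sham (adjusted p = 0.251). Of the 6 tested, 0 passed edgeR's test, 3 had an unadjusted p under 0.05 and DESeq2 called 1 (Myh11). Endothelial markers summed to 17.9 to 27.2 CPM in ASC and 17.0 to 29.6 CPM in sham (adjusted p = 0.743). The part of these tissues in the levels given here was not tested.

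YAP and TAZ (the product of Wwtr1) carry no DNA-binding domain of their own and act on genes through the TEAD transcription factors. The Hippo kinases phosphorylate them and hold them out of the nucleus, while tension on the cytoskeleton and some G-protein-coupled receptors release them. Many of their targets feed back on the pathway. In the mouse lens, Yap1 is needed to maintain the epithelial progenitor cells. Ccn1 and Ccn2, secreted matricellular proteins that bind integrins and heparan sulphate proteoglycans, are the targets most often read as a measure of YAP and TAZ activity, but they also answer to other inputs such as serum response factor and TGF-beta.

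The short stretches shown here are the promoter positions at which each member carries the core sequence recognised by TEAD factors, GGAATG, or its reverse complement. RefSeq promoters of GRCm38.p6, 300 bases from 250 before to 50 after the annotated start site, were held for 9 of the 10 members. The core was found in 8 of the 9, and in 8 of their 10 windows, since Lats2 has another window without a match. Of the 32851 promoter windows of the same length in the table, 14.7% contain it on either strand. Amotl1 is the member with a promoter but no match in this window, and Ankrd1 and Ajuba have 2 matches each. The members were picked as YAP/TAZ targets, so this share describes the set. The Ccn1 stretch lies at chr3:145650071-145650100 on the minus strand, and its match begins at position -103 from the start site. The Ankrd1 matches begin at -210 and -123 (chr19:36120037-36120066 and chr19:36119950-36119979, minus strand), and that of Amotl2 at -65 (chr9:102717727-102717756, plus strand). The Lats2 match begins just inside the transcript at position 5 (chr14:57746102-57746131, minus strand), and those of Ajuba at -186 and -164 (chr14:54577830-54577859 and chr14:54577808-54577837, minus strand). The Crim1 match begins at -79 (chr17:78200157-78200186, plus strand), that of Axl at -233 (chr7:25788949-25788978, minus strand) and that of Ptpn14 at -146 (chr1:189728110-189728139, plus strand). Each stretch of 30 bases reads 5′ to 3′ on the strand of its gene, with the TEAD core in capitals.
Ccn1: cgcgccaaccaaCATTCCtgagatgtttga
Ankrd1, upstream match: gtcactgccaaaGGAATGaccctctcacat
Ankrd1, downstream match: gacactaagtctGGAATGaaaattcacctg
Amotl2: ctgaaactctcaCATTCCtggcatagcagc
Lats2: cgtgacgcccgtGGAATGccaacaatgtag
Ajuba, upstream match: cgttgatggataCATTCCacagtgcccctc
Ajuba, downstream match: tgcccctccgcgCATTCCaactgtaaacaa
Crim1: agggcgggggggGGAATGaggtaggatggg
Axl: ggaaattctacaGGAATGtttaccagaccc
Ptpn14: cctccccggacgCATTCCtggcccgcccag

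Other motifs were searched in the same windows on both strands. AP-1 (TGANTCA), the cyclic AMP response element (TGACGTCA), the CArG box of serum response factor and the EGR1 motif (GCGTGGGCG) had a match in 0 of the 9 members, against 7.81%, 1.79%, 1.63% and 0.612% of all windows. A missing match says only that these letters are not in the window. The 250 bases before the start site of Ccn1 (chr3:145649986-145650235, minus strand) are shown whole because Ccn1 is the member whose level differed, again with the TEAD core in capitals.
Ccn1 promoter: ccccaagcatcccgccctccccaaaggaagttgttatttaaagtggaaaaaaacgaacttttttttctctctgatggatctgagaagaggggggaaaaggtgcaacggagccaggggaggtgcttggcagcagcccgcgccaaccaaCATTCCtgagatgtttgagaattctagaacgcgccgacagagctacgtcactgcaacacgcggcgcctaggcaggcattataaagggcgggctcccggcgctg

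Ccn1 was high in every ASC library and low in every sham library. It reached 242, 190, 205 and 231 CPM in ASC 1 to ASC 4, against 14.1, 15.7, 25.7 and 8.48 CPM in sham 1 to sham 4. Library sizes behind CPM were scaled by the trimmed mean of M values (TMM). The lowest ASC library lay far above the highest sham library, sham 3, and the values rest on 3418 to 3798 reads per ASC library and 114 to 531 reads per sham library. The means were 217 ± 23.8 CPM in ASC and 16.0 ± 7.18 CPM in sham (SD, n = 4 each), a log2 fold change of 3.75 (SE 0.31, 95% confidence interval 3.03 to 4.47). This is the 13th largest positive change among the 15857 genes tested. The ASC libraries were close to each other, with a coefficient of variation of 10.9%, while the sham libraries spread by 44.8%.

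Ccn2, the nearest relative of Ccn1 among the targets, did not follow it. Ccn2 had 201, 150, 197 and 206 CPM in ASC 1 to ASC 4, against 163, 216, 179 and 162 CPM in sham 1 to sham 4. The groups overlapped, with the lowest value in ASC 2 and the highest in sham 2. Its log2 fold change was 0.07 (95% confidence interval -0.21 to 0.35), so the upper end of the interval is 1.27-fold.

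**Figure D1:**
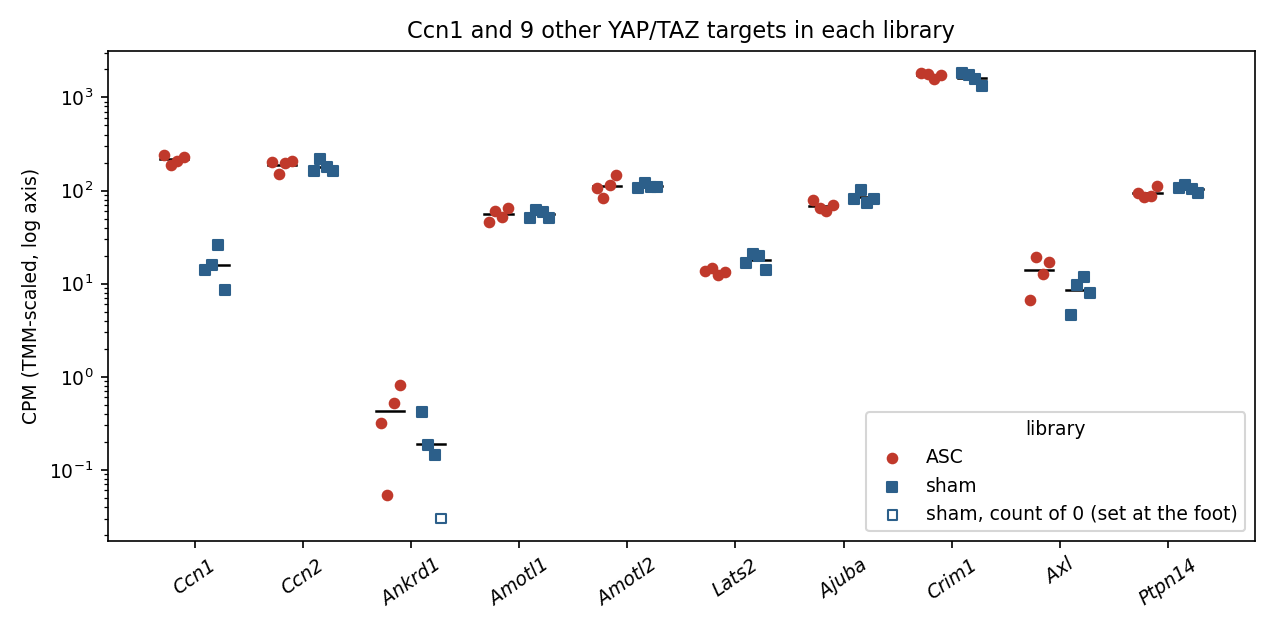
Each point is the level of 1 member in 1 library, in TMM-scaled CPM on a log axis, with ASC (red circles) left of sham (blue squares) and a bar at the mean of 4 libraries. Ccn1 lies at 190 to 242 CPM in ASC and at 8.48 to 25.7 CPM in sham, whereas the groups overlap for the other members; the open square marks sham 4, which had 0 Ankrd1 reads.

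Ankrd1, which encodes a nuclear ankyrin repeat protein of muscle and stretched cells, was barely detected. It had 5, 1, 9 and 12 reads in ASC 1 to ASC 4, against 9, 4, 3 and 0 reads in sham 1 to sham 4. The 0 of sham 4 allows a level of up to 0.223 CPM (3 counts, counting error only). The gene was not tested, and a difference was not detectable at this depth.

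The angiomotin-like proteins Amotl1 and Amotl2 bind YAP at junctions and on actin and restrain it. Amotl1 averaged 55.7 ± 8.32 CPM in ASC and 55.6 ± 5.85 CPM in sham (SD, n = 4 each), a log2 fold change of 0.00 (interval -0.26 to 0.26). Amotl2 averaged 113 ± 25.8 CPM in ASC and 111 ± 5.54 CPM in sham, a log2 fold change of 0.02 (interval -0.29 to 0.33). The Amotl2 mean hides a wider scatter in ASC, where the libraries ran between 83.4 CPM in ASC 2 and 146 CPM in ASC 4, around a sham range of 107 to 120 CPM.

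Lats2, a Hippo kinase that phosphorylates YAP and TAZ, Ajuba, a LIM protein that inhibits the LATS kinases, and Ptpn14, a phosphatase that binds YAP and keeps it in the cytoplasm, had negative fold changes. Lats2 had 13.8, 14.8, 12.3 and 13.4 CPM in ASC 1 to ASC 4, against 16.5, 20.8, 19.6 and 14.1 CPM in sham 1 to sham 4, a log2 fold change of -0.39 (interval -0.68 to -0.09). Ajuba had 78.8, 64.8, 60.2 and 70.7 CPM in ASC 1 to ASC 4, against 82.2, 102, 73.0 and 82.2 CPM in sham 1 to sham 4, a log2 fold change of -0.30 (interval -0.56 to -0.05). For both genes the groups touched through ASC 2 and sham 4 for Lats2 and through ASC 1 and sham 3 for Ajuba. Ptpn14 averaged 94.6 ± 11.9 CPM in ASC and 105 ± 8.68 CPM in sham, with a log2 fold change of -0.15 (interval -0.38 to 0.08).

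Crim1 and Axl are membrane proteins. Crim1, a transmembrane protein that binds BMPs and is needed for lens development in the mouse, had 1830, 1807, 1586 and 1739 CPM in ASC 1 to ASC 4, against 1830, 1760, 1572 and 1333 CPM in sham 1 to sham 4. It was abundant in every library and differed little, with a log2 fold change of 0.10 (interval -0.19 to 0.39). Axl, the receptor tyrosine kinase for Gas6, had 6.70, 19.4, 12.7 and 17.1 CPM in ASC 1 to ASC 4, against 4.63, 9.76, 11.9 and 7.89 CPM in sham 1 to sham 4. Of the members below Ccn1 it had the largest positive fold change, 0.71 on the log2 scale, with a wide interval (-0.15 to 1.57) and with ASC 1 inside the sham range. Macrophage and leukocyte markers, which include cells known to express Axl, summed to 24.1, 93.8, 78.9 and 76.1 CPM in ASC 1 to ASC 4, against 12.9, 60.1, 58.4 and 38.2 CPM in sham 1 to sham 4, and 0 of the 14 tested passed. ASC 1 and sham 1 were the lowest library of their group for Axl and for these markers alike, and the part of these cells in the Axl levels was not tested.

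For 9 of the 10 members, all but Ankrd1, counts were high enough for the fit. Of these 9 the groups did not overlap for 1, Ccn1, which was higher in ASC, and 0 lay wholly lower in ASC. Among all genes tested 3.39% lay wholly higher in ASC and 5.67% wholly lower. Since the members were chosen on this contrast, nothing is read from that share. The 8 members other than Ccn1 had a median log2 fold change of 0.01, beside 0.008 for all genes, with 5 positive and 3 negative. Scaled by library totals alone the median of all genes moved to -0.116 and that of the 8 members to -0.112, with 1 positive and 7 negative, so the signs of Ccn2, Amotl1, Amotl2 and Crim1 carry no direction. The log2 fold change of Ccn1 was 3.61 without ASC 1 and ASC 4 together, the libraries with the highest red cell level, an alternative chosen after seeing the data.

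**Figure D2:**
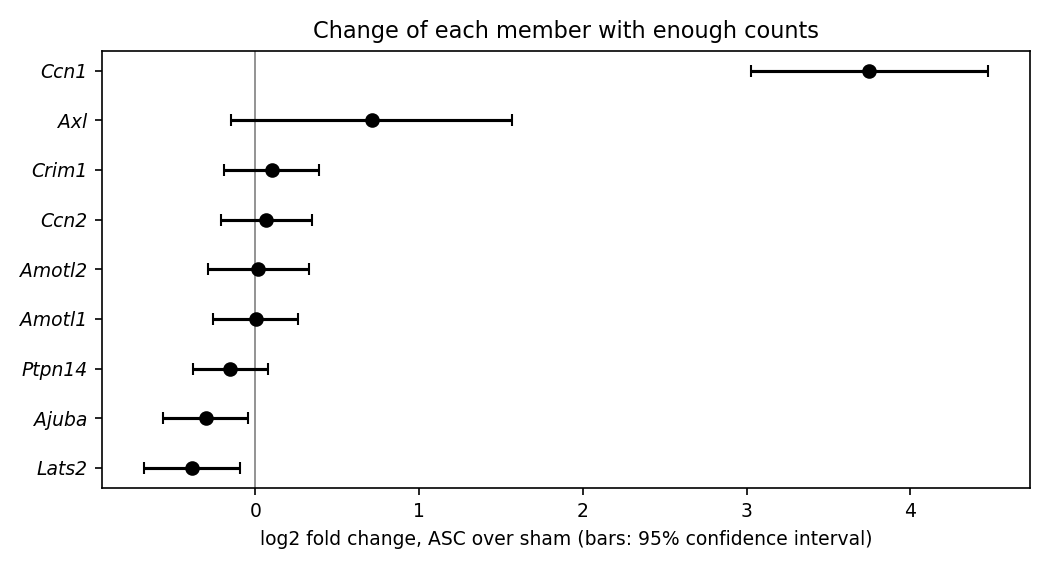
The log2 fold change of ASC over sham (x axis) is shown for each of the 9 members with enough counts, with bars for the 95% confidence interval. Ccn1 stands at 3.75, and the other 8 lie between -0.39 (Lats2) and 0.71 (Axl).

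Because the comparison between members should not hang on the scaling of the libraries, Ccn1 was also set against the other members inside each library. The log2 ratio of Ccn1 to the median of the 8 others, in CPM, was 1.50, 1.37, 1.50 and 1.38 in ASC 1 to ASC 4, against -2.72, -2.77, -1.76 and -3.36 in sham 1 to sham 4. The sign of such a ratio depends on gene length, and what is read is its difference of 4.08 between ASC (1.43 ± 0.07) and sham (-2.65 ± 0.66; SD, n = 4 each). Most of that difference came from Ccn1, since the median of the 8 others was 6.32 ± 0.15 log2 CPM in ASC and 6.55 ± 0.14 log2 CPM in sham. That median is the middle of the CPM order, set by Ajuba and Ptpn14, or by Ajuba and Amotl2 in ASC 2. Ajuba and Ptpn14 had negative fold changes, so the ratio differed by more than Ccn1 itself (log2 fold change 3.75). It does not stand for the change of all 8, whose median log2 fold change was 0.01. Set against single members, the ASC minus sham difference in the log2 ratio ran between 3.18 for Ccn1 over Axl and 4.22 for Ccn1 over Lats2. For Ccn1 over Ccn2 it was 3.79, and for each of the 8 pairs the lowest ASC library lay above the highest sham library.

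Levels were compared between genes per kilobase of exon, using GENCODE M21 lengths. In ASC, Crim1 was the highest member (290 CPM per kilobase), then Ccn1 (107), Ccn2 (65.9), Ajuba (18.8), Amotl2 (18.0), Ptpn14 (7.05), Amotl1 (5.54), Axl (2.78), Lats2 (1.95) and Ankrd1 (0.148). In sham, Crim1 was also the highest (271 CPM per kilobase), then Ccn2 (62.9), Ajuba (23.2), Amotl2 (17.7), Ccn1 (7.93), Ptpn14 (7.83), Amotl1 (5.53), Lats2 (2.55), Axl (1.70) and Ankrd1 (0.0653). Ccn1 thus stood in place 2 of 10 in ASC and in place 5 in sham. Neighbours whose libraries overlapped in ASC were Ajuba and Amotl2, Ptpn14 and Amotl1, and Axl and Lats2. In sham the overlapping neighbours were Ccn1 and Ptpn14, and Lats2 and Axl.

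The balance inside the CCN family changed with Ccn1. Ccn1 made up 62.5%, 63.4%, 58.4% and 60.3% of the summed CCN level per kilobase in ASC 1 to ASC 4, against 10.4%, 9.15%, 16.3% and 6.71% in sham 1 to sham 4. Ccn2 held 37.4% ± 1.82 in ASC and 85.9% ± 4.50 in sham (SD, n = 4 each). The family was therefore mostly Ccn1 transcript in ASC and mostly Ccn2 transcript in sham. Ccn3, Ccn4, Ccn5 and Ccn6 averaged 0.279 to 1.45 CPM per kilobase in ASC and 0.346 to 1.13 CPM per kilobase in sham, and none of these 4 passed the test.

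**Figure D3:**
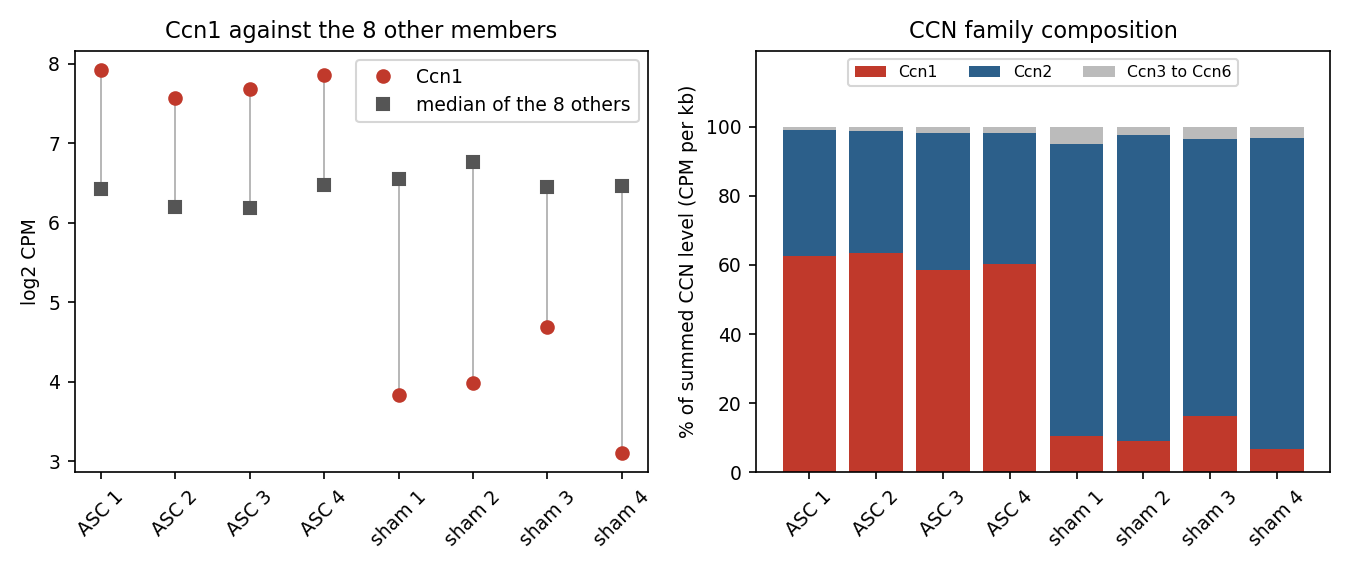
Left, log2 CPM of Ccn1 (red circles) and the median of the 8 other members with enough counts (grey squares) in each library; right, the share of Ccn1, Ccn2 and Ccn3 to Ccn6 in the summed CCN level per kilobase, in percent. The median of the other members stays between 6.19 and 6.76 in all 8 libraries, while Ccn1 lies above it in each ASC library and below it in each sham library.

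Other genes of the pathway were taken from lists chosen by function, but with earlier results of these data known. Calls in these lists are therefore no independent support. The genes were tested with edgeR's quasi-likelihood test, with Benjamini-Hochberg adjustment over all genes and a threshold of 0.05. That threshold was passed by 1.02% of all genes tested, by 0.631% higher in ASC and by 0.391% lower in ASC. Before adjustment, 2335 of the 15857 genes tested had p under 0.05, and the counts below are to be read beside that. DESeq2 called 572 genes in all. Of the 14 other genes of a published human 22-gene YAP/TAZ signature, of which 8 members here are also part, 13 were tested, 1 rose and 0 fell. The one that rose was Gadd45a, a stress-induced regulator of growth arrest and a known p53 target, at 17.0 ± 5.82 CPM in ASC and 5.03 ± 1.71 CPM in sham (log2 fold change 1.75, SE 0.31, edgeR adjusted p = 0.0352). Its call was lost without any of ASC 1, ASC 3, ASC 4, sham 1, sham 2 or sham 4 (adjusted p up to 0.125). The list median was 0.11, with 10 positive and 3 negative values under TMM.

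The factors that would carry the signal differed little at the transcript level. Of the 10 YAP, TAZ, TEAD and VGLL genes 8 were tested and 0 passed edgeR's test (with no adjustment 1 had p under 0.05, and DESeq2 called 1, Vgll4), with a median of -0.01. Yap1 had 93.6 ± 7.20 CPM in ASC and 101 ± 10.4 CPM in sham (-0.11, adjusted p = 0.644). Vgll4, which competes with YAP for TEAD factors, had 64.2 ± 6.87 CPM in ASC and 90.6 ± 12.1 CPM in sham (-0.50, adjusted p = 0.0654). Named after its values were seen, Wwtr1 was at 23.9 ± 1.32 CPM in ASC and 20.5 ± 3.66 CPM in sham (0.22, adjusted p = 0.446). Activity of YAP and TAZ is set mostly by phosphorylation and location, which were not measured here.

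Of the 21 Hippo kinases and adaptors, all tested, 0 passed edgeR's test (3 had p under 0.05 before adjustment, and DESeq2 called 1, Mob1a), and the median was 0.02. The most abundant were Map4k4, a kinase upstream of LATS, at 218 ± 17.4 CPM in ASC and 194 ± 7.92 CPM in sham (0.17), and the cadherin Fat4 at 156 ± 30.0 CPM in ASC and 147 ± 19.2 CPM in sham (0.08). The LATS co-activator Mob1a, chosen after its values were seen, had 58.0 ± 3.07 CPM in ASC and 79.7 ± 10.3 CPM in sham (-0.46, adjusted p = 0.0595), with the groups apart.

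Of the CCN receptors, the other CCN genes and the TAM receptors with their ligands, 0 of 16 tested passed edgeR's test (before adjustment 1 had p under 0.05, and DESeq2 called 0; median 0.10). The endocytic receptor Lrp1 had 579 ± 62.9 CPM in ASC and 460 ± 49.3 CPM in sham (0.33, adjusted p = 0.231), and the integrin subunit Itgb5 438 ± 39.8 CPM in ASC and 419 ± 27.3 CPM in sham (0.06). Cytoskeletal targets of serum response factor and its MRTF co-activators, a pathway that shares several targets with YAP, also had 0 of 17 tested past edgeR's threshold (3 with p under 0.05 before adjustment, 0 called by DESeq2; median 0.10). Actb had 479 ± 90.0 CPM in ASC and 489 ± 62.0 CPM in sham (-0.03), and Actg1 478 ± 63.4 CPM in ASC and 438 ± 22.7 CPM in sham (0.13).

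The list with the most genes that rose was that of the immediate early genes, transcripts that need no new protein synthesis to be switched on and to which Ccn1 is itself counted in cultured cells. Of 26 tested, 10 rose and 0 fell (edgeR), and the median was 2.03. Wholly higher in ASC were 17, against 3.39% of all genes tested. The count passing edgeR's test was 6 without ASC 1, ASC 3, sham 1 or sham 2 and 16 without sham 3. DESeq2 called 19, of 572 genes it called in all. The 6 called genes named by their size were Egr1 (5.38), Nr4a1 (3.48), Ier2 (3.40), Atf3 (3.33), Jun (3.19) and Dusp1 (2.19), all as log2 fold changes. Jun, Ier2 and Dusp1 kept their call without any single library. Egr1 lost it in 5 of the 8 cases (without ASC 1, ASC 3, ASC 4, sham 1 or sham 2), Nr4a1 without ASC 1, ASC 3, sham 1 or sham 2, and Atf3 in all but the fit without sham 3. The summed red cell markers were higher in each ASC library than in any sham library, as given above. Of the 8 corneal epithelial markers tested, 3 had an unadjusted p under 0.05. The same 3 passed edgeR's test and rose, Krt5 (log2 fold change 3.52, adjusted p = 0.0387), Krt12 (3.19, adjusted p = 0.0395) and Krt6a (2.79, adjusted p = 0.0426). These 3 lost their call without ASC 1, ASC 3, ASC 4, sham 2 or sham 3, and Krt5 and Krt6a also without sham 4. The summed corneal level was 5328 to 6719 CPM in ASC and 5247 to 5808 CPM in sham, a log2 difference of 0.166. The 3 genes rose far more than the sum, so the sum rests mostly on other genes of the list and does not follow them. The part of these tissues in the Ccn1 level was not tested.

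**Figure D4:**
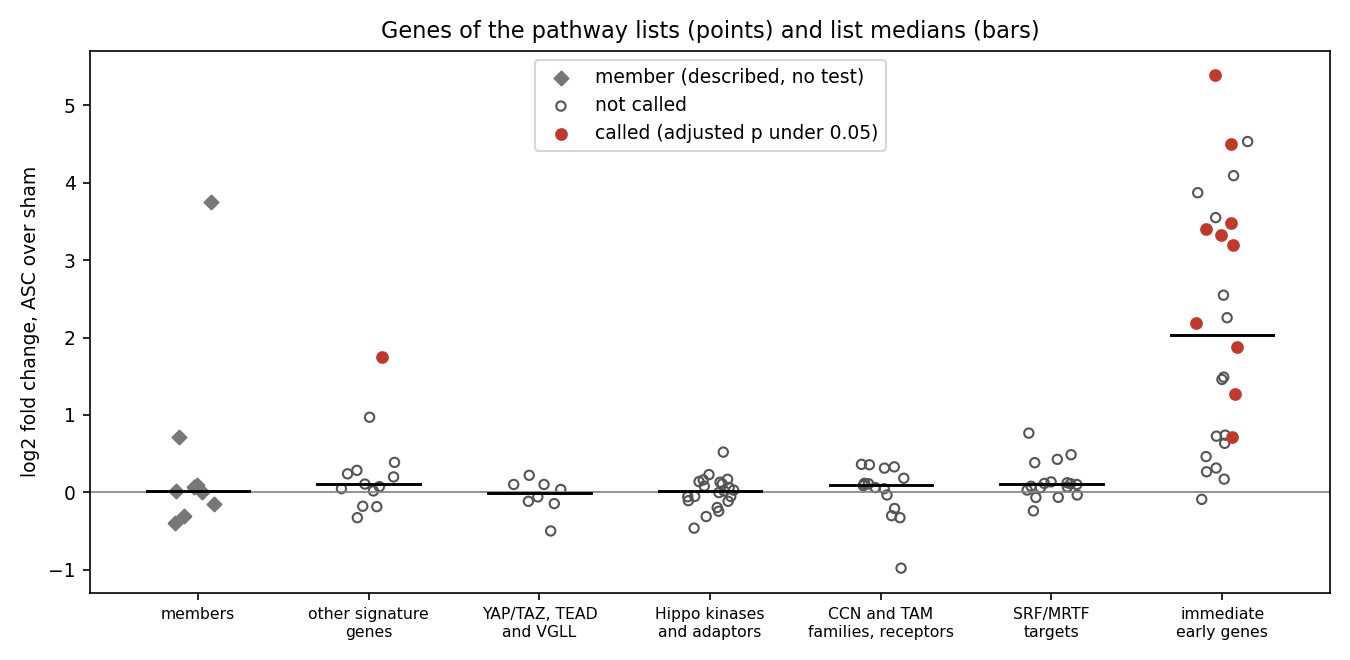
Each point is the log2 fold change of ASC over sham (y axis) of 1 tested gene, by list, with the list median as a bar and filled red points for genes with an adjusted p under 0.05; the members (grey diamonds) are described without a test. The medians of the YAP/TAZ, Hippo, CCN and serum response factor lists lie between -0.01 and 0.11, and that of the immediate early genes at 2.03. The lists were chosen with earlier results of these data known.

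The genes whose pattern over the 8 libraries came nearest to that of Ccn1 were looked up among 9545 genes whose mean log2 CPM was 3 or more, by the root mean square distance of log2 CPM centred on each gene's mean. The 8 nearest were the orphan nuclear receptor gene Nr4a1 (distance 0.37), the mRNA decay factor Zfp36 (0.45), the stress cytokine Gdf15 (0.49), the AP-1 gene Jun (0.50), the small GTPase Gem (0.50), Ier2 (0.51), the stress-induced factor Atf3 (0.57) and the AP-1 gene Junb (0.58). None of the 8 is a member. Zfp36 and Junb did not pass edgeR's test (adjusted p = 0.0685 and 0.0738), though DESeq2 and limma-voom called both. With a library left out, edgeR called these 2 only without sham 3. The distance takes in all 8 libraries, so it largely carries the ASC against sham difference on which Ccn1 was chosen. Genes with a rise of like size are thus near by construction. The distances of the members describe that difference again and are no separate evidence. Axl was the nearest member, at 1.71 with 245 genes nearer to Ccn1 than it, then Crim1 at 1.91 with 2166 genes nearer and Ccn2 at 1.93 with 2901. Lats2 was the farthest, at 2.13 with 8979 of the 9545 genes nearer.

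Within each group, the order of the libraries was set beside that of the immediate early genes. Among sham libraries Ccn1 was highest in sham 3 and lowest in sham 4. Of the 26 tested immediate early genes, 17 were highest in sham 3 and 16 lowest in sham 4, against 23.9% and 27.1% of all tested genes. Among ASC libraries Ccn1 was lowest in ASC 2, and so were 17 of the 26 immediate early genes, against 25.0% of all tested genes. Ccn1 was highest in ASC 1, where 7 of the 26 were highest, against 28.4% of all tested genes. The immediate early genes were most often highest in ASC 3, 12 of the 26, against 19.6% of all tested genes. There Ccn1 had 205 CPM, below ASC 1 and ASC 4, so the 2 orders differed at the top of ASC. These libraries share their RNA across all genes, so the counts describe the order of libraries only. Without ASC 3 and sham 3 together, an alternative chosen after seeing the data, Ccn1 had a log2 fold change of 4.10. Promoters were held for 6 of the 8 nearest genes, in 7 windows. The TEAD core was found in 2 of these windows, that of Nr4a1 and the more downstream one of Gdf15, beside 14.7% of all windows. A CArG box was found in 1, that of Zfp36, beside 1.63% of all windows. The AP-1, cyclic AMP response element and EGR1 motifs had a match in 0. These counts are too small to read a difference from.

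**Figure D5:**
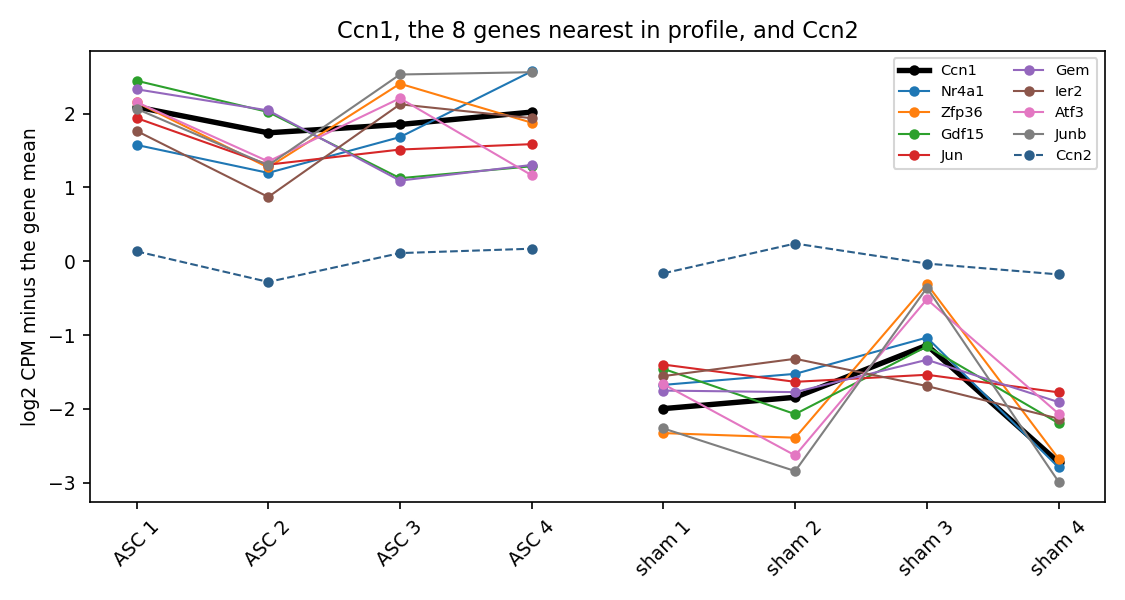
Log2 CPM minus the gene's own mean (y axis) is drawn for Ccn1 (thick black), the 8 genes nearest to it and Ccn2 (dashed) in the 8 libraries; lines only join the points of 1 gene within a group. Ccn1 and the 8 nearest genes lie above their mean in each ASC library and below it in each sham library, while Ccn2 stays within 0.3 of its mean.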

How the data were processed

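RNA was extracted with Trizol, poly-A selected and made into libraries with random priming, per the labels' protocols. The authors deposited 1 table of raw read counts per gene for the 8 libraries. CASAVA, fastp, HISAT2 2.0.5 and featureCounts 1.5.0-p3 had been used, per the submitters' processing notes. Not given in the sources used here are the genome build, the annotation release, the strand setting and the treatment of multi-mapping reads. Symbols were matched for 54409 of 54532 identifiers.

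The deposited counts were tested in R 4.3.3 with edgeR 4.0.16 (filterByExpr, TMM, robust quasi-likelihood F test, no covariate, Benjamini-Hochberg adjustment over 15857 genes, threshold 0.05). In all 162 genes passed, 100 higher and 62 lower in ASC, and 2335 had an unadjusted p under 0.05. The labels do not say whether capsules were pooled, p-values measure the spread between these libraries, and counts carry no molecular identifiers, so counting limits cover counting error only. Log2 CPM used a prior count of 2. CPM per kilobase used the exon union of GENCODE M21, which held 54495 identifiers. Marker levels are summed CPM, tested on log2 values (pseudocount 0.1) by exact permutation over 70 assignments, whose smallest p is 0.0286. Promoters are those of RefSeq on GRCm38.p6, and motif letters were searched by exact match on both strands.

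The members, gene lists and tests were chosen with earlier results of these data known. Named genes were all members, then from each list the called genes with a mean log2 CPM of 1 or more, at most the 6 that changed most, otherwise the 2 most abundant, and the 8 genes nearest in profile to Ccn1. 1 pathway list and 1 marker list are not reported here. The analysis was tested on simulated counts. Alternatives were DESeq2 1.42.0, limma-voom (limma 3.58.1), 3 scalings, 2 low-count filters, a replicate block, no robust estimation, a threshold of 0.01, and each library left out.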

Additional observations from a re-analysis of the deposited data

Results flagged for a closer look

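Of 42 groups of 4 libraries examined (2 groups for each of the 9 members with enough counts, the within-library ratio and the 11 marker lists), 2 held a library that stood far from the other 3, and chance gives about 1 in 20. Ccn2 was lowest in ASC 2, at 7.23 log2 CPM, with the other ASC libraries at 7.63 to 7.68. Macrophage and leukocyte markers were lowest in ASC 1, at a log2 summed level of 4.60, with the other ASC libraries at 6.25 to 6.55.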

How the results depend on the processing

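Values of the members describe the genes chosen on this contrast. The within-library ratio of Ccn1 to the others differed by 3.849 to 4.382 over 12 variants (a prior count of 0.5, the mean of the other members, libraries left out). Ccn1 itself was at 3.549 to 4.100 over all 19 refits. Without ASC 1 and ASC 4 together, chosen after seeing the data, 0 other signature genes and 6 immediate early genes passed. The count of all called genes ran between 42 and 712, so calls near the threshold depend on the libraries and settings, and the cause was not tested. Among 572 genes in all, DESeq2 called 19 immediate early genes, and 1 gene each of the Hippo (Mob1a) and TEAD and VGLL (Vgll4) lists. Upper quartile scaling called Mob1a and Vgll4, 1 gene in each list, and library totals Vgll4. Without a low-count filter, 2 signature genes (F3 and Gadd45a), 1 Hippo gene (Mob1a), 1 TEAD and VGLL gene (Vgll4), 1 serum response factor target (Cnn2) and 17 immediate early genes passed. At a threshold of 0.01, 0 signature genes and 6 immediate early genes passed. With a library left out, 0 to 1 signature genes (0 without ASC 1, ASC 3, ASC 4, sham 1, sham 2 or sham 4), 0 to 1 TEAD and VGLL genes (Vgll4, called without sham 1) and 6 to 16 immediate early genes passed, 6 without ASC 1, ASC 3, sham 1 or sham 2 and 16 without sham 3.

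The log2 fold changes that turned sign lay near 0. Amotl1 was at -0.001 with DESeq2, -0.023 with limma-voom, -0.117 with library totals, -0.015 with upper quartile scaling, -0.012 without a filter and -0.078 to 0.082 with a library left out. Amotl2 was at -0.107 with library totals, -0.131 to 0.137 with a library left out, -0.165 without ASC 1 and ASC 4, and -0.004 without ASC 3 and sham 3 (also chosen after seeing the data). Ccn2 was at -0.071 and Crim1 at -0.027 with library totals, and Ccn2 at -0.051 without ASC 1 and ASC 4. Over all settings 0 to 4 red cell, 0 to 3 lens fibre, 0 to 3 corneal and 0 to 2 pigment cell markers passed. In each of the keratocyte and fibroblast, smooth and ciliary muscle, macrophage and leukocyte, and neutrophil lists 0 to 1 passed. Summed marker levels turned for lens epithelium (-0.022 to 0.188) and endothelium (-0.039 to 0.226) with a library left out.

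Replicate numbers come from the labels, which do not say whether same-numbered libraries were paired. Deviations of ASC 1 to ASC 4 correlated at 0.217, 0.057, 0.214 and -0.090 with those of the same-numbered sham library. The largest correlation with a sham library of another number was 0.300, 0.168, 0.0909 and 0.213. Such values cannot decide whether the libraries were paired, which was not tested. With the number as a replicate block Ccn1 was at 3.831, Amotl1 was at -0.006 and Amotl2 at -0.007, and 169 genes passed in all, against 162 without it. Counts of 0 to 12 reads limit Ankrd1.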
